A study of Mus musculus with 6 samples.

Results

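Metallothioneins and the zinc transporters that work beside them were described here in RNA of mouse brain endothelial cells after a convulsant. The set held 8 genes, chosen by symbol from the 53465 genes of the deposited count matrix: the metallothioneins Mt1, Mt2 and Mt3, the zinc-sensing transcription factor Mtf1, the zinc exporter Slc30a1 and the importers Slc39a8, Slc39a10 and Slc39a14. All 8 were matched to an Ensembl gene and all 8 passed the filter on low counts. The mice were males of 8 to 12 weeks that carried tie2-Cre, ai9 and rpl22HA/HA, alleles that both groups share. One group received phosphate buffered saline (PBS) and the other pentylenetetrazol (PTZ), a convulsant drug that blocks inhibitory GABA-A receptors. Each group held 3 libraries, numbered 1, 2 and 4, from cells of the cortex. The Tie2 promoter drives Cre in endothelium and in some blood cells, ai9 is a fluorescent reporter of Cre, and the HA tag on Rpl22 labels ribosomes of the same cells. The sources used here do not give the dose of PTZ, the time to collection or how cells or ribosomes were isolated, and the labels do not say whether each library is a separate animal.

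Metallothioneins are small, cysteine-rich proteins that bind zinc and copper and release them again. When free zinc rises in a cell, MTF1 binds short metal response elements and switches on Mt1, Mt2 and Slc30a1, so that zinc is bound by metallothionein or pumped out. Proteins of the SLC39 family carry zinc into the cytosol and those of the SLC30 family carry it out or into vesicles. Glucocorticoids and cytokines of the interleukin-6 group also induce Mt1 and Mt2, and at the blood-brain barrier the endothelium is the layer through which zinc enters the brain.

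The promoters of Mt1, Mt2 and Slc30a1, the textbook targets of MTF1 among the 8 genes, are shown because MTF1 is known to act on them through metal response elements. RefSeq entries of the GRCm38.p6 build were matched for 7 of the 8 genes. Each line gives the 250 bases before the RefSeq start on the plus strand, 5′ to 3′, at chr8:94178839-94179088 for Mt1, chr8:94172368-94172617 for Mt2 and chr1:191906531-191906780 for Slc30a1, with matches to the core of the element on either strand in capitals.
Mt1: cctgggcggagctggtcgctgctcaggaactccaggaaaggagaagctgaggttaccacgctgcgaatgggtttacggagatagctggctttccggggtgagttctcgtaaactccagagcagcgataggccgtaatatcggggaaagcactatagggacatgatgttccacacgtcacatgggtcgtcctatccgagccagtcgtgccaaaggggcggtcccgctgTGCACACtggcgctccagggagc
Mt2: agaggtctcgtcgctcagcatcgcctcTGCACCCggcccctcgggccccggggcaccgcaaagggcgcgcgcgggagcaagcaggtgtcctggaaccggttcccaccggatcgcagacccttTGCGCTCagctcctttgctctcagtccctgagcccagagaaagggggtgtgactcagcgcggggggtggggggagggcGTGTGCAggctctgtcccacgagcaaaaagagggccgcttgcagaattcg
Slc30a1: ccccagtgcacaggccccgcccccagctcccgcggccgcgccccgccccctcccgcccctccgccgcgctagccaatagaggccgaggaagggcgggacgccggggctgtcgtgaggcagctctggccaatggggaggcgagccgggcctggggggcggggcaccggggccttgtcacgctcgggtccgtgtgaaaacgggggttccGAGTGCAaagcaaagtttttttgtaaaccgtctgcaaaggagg
The core was searched as TGCACNC or TGCGCNC on both strands, overlaps allowed, in the 300 bases from 250 before the start to 50 from the start on. The Mt2 window held 4 matches, the Mt1 window 3 and the Slc30a1 window 2. Of 32851 RefSeq windows of the same length, 25.7% held at least 1 match, 7.11% at least 2, 1.97% at least 3 and 0.517% at least 4. In Mt2 a match reading TGCACCC began 223 bases before the start, one reading TGCGCTC began 128 bases before it, and on the minus strand TGCACAC lay 50 to 44 bases before it. In Mt1 the match before the start, TGCACAC, began 23 bases before it, and TGCACTC and TGCGCTC lay 2 and 20 bases after it. In Slc30a1 both matches, TGCACTC and TGCGCTC, were on the minus strand. The Mt2 window also held TGACTCAGC, a match to the core of the antioxidant response element (TGACNNNGC, found in 12.4% of windows), and the Slc30a1 window held TGACAAGGC on the minus strand. GENCODE starts Mt2 46 bases downstream of the RefSeq start and lists further Mt1 transcripts that start 122 and 152 bases downstream of the RefSeq start of Mt1. The Mt1 matches 2 and 20 bases after the RefSeq start lie upstream of both of these further starts. These windows therefore do not hold all sequence near every start. A match is a description of letters and was not tested as a site.

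Levels are TMM-scaled CPM, a gene's reads in a fixed number of library reads, given as mean ± SD over n = 3 libraries. A positive log2 fold change means a higher level in PTZ, and SE is its standard error. Gene counts summed to 11107481 to 15406967 per library, and 22683 to 25620 genes had at least 1 read. The 12 endothelial markers summed to 13751 to 20734 CPM in PBS and to 13654 to 25389 CPM in PTZ. Reads of red cell genes (4860 to 10178 CPM over 4 genes) and of microglia and macrophages (1617 to 2982 CPM over 8 genes) were present in every library, while 5 markers of choroid plexus and ependyma summed to at most 8.74 CPM. In these bulk libraries, fewer cells of a type and less RNA per cell cannot be told apart.

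Per length of annotated exon, Mt1 had the highest mean level of the 8 genes and Slc39a14 was close to the detection limit. Over the 6 libraries the level per kilobase (kb) of exon was 1062 ± 792 CPM per kb (SD) for Mt1, which ranked 37 of 13762 tested genes with a length. Mt2 followed at 127 ± 136 CPM per kb, Slc30a1 at 49.5 ± 17.6, Slc39a10 at 27.7 ± 2.18 and Slc39a8 at 12.7 ± 2.33 CPM per kb. At the low end stood Mt3 at 2.80 ± 2.03, Mtf1 at 2.59 ± 0.351 and Slc39a14 at 0.229 ± 0.135 CPM per kb. Neighbours in this order whose libraries overlapped were Mt2 and Slc30a1, Slc30a1 and Slc39a10, and Mt3 and Mtf1. In the other neighbouring pairs every library of the higher gene lay above every library of the lower one, which for Mt1 and Mt2 holds for the full exon length of Mt2.

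**Figure D1:**
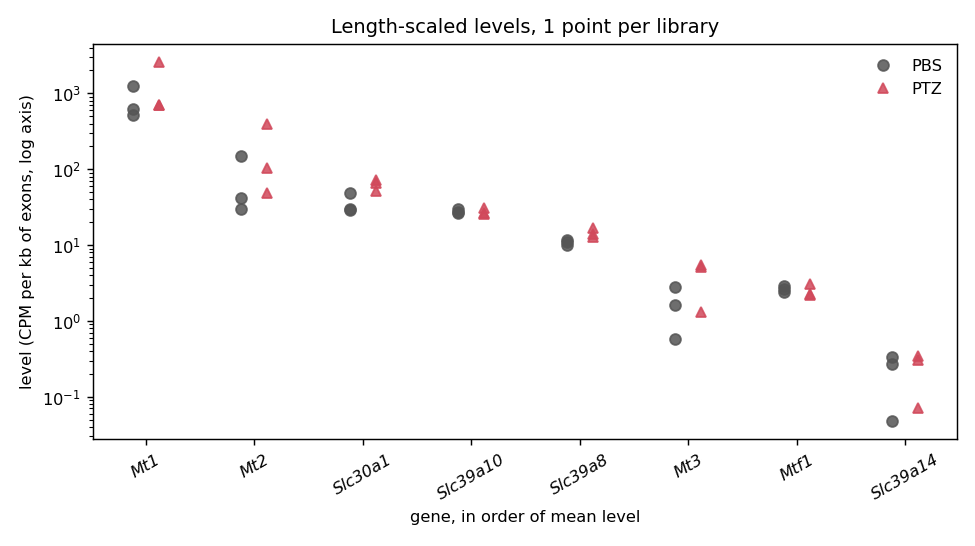
Level of each gene in CPM per kb of annotated exon (log axis), 1 point per library, circles for PBS and triangles for PTZ, in order of the mean. Mt1 lies between 512 and 2592 CPM per kb in every library, and Slc39a14 reaches at most 0.347.

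The level of Mt2 is uncertain, because a gene on the opposite strand covers most of its exons. Mt2 (ENSMUSG00000031762, protein coding, chromosome 8, 94172664 to 94173568, plus strand, GRCm38) has 588 exon bases, of which 432 (73.5%) are also exon of the antisense gene Gm45774. The sources used here do not say whether strand was used in counting, and counting without strand leaves reads from such a stretch unassigned. Gm45774 itself had 5 to 34 reads per library. If only the bases covered by no other gene had given reads, the level of Mt2 would be 479 CPM per kb in place of 127. The ratio of Mt1 to Mt2 reads, 14.1 to 36.5 over the libraries, therefore does not compare their transcripts. Mt1 (ENSMUSG00000031765, protein coding, chromosome 8, 94179082 to 94180327, plus strand) shares none of its exon bases with another gene, and none of its 1292 stretches of 50 bases occurs in a transcript of another annotated gene.

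PTZ was then compared with PBS, the contrast the design was built for. The zinc exporter Slc30a1 was 1.76-fold higher in PTZ and the importer Slc39a8 was 1.32-fold higher by the ratio of means, each without overlap between the groups. Mt1 and Mt2 were higher in PTZ within each replicate number, but their libraries overlapped between the groups. Mtf1 and Slc39a10 differed little. In edgeR's quasi-likelihood test 0 of the 8 genes passed at an adjusted p under 0.05, where 0% of all 13768 tested genes passed in either direction, and the smallest adjusted p of any gene was 0.283. Slc30a1 was higher at an unadjusted p under 0.05, 1 of the 8, against 3.83% of all genes, and 0 were lower, against 3.38%. With replicate number as a block 3 of the 8 were higher at that level, Mt1, Mt2 and Slc30a1, against 5.59% of all genes, and 0 were lower, against 5.31%, while 0 passed after adjustment. A positive log2 fold change was found for 6 of the 8 (median 0.57) and for 52.7% of all genes (median 0.03). DESeq2 called 53 genes higher and 23 lower, and limma-voom 1 and 0, with none of the 8 among them.

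Slc30a1 encodes the zinc exporter of the plasma membrane. The gene (ENSMUSG00000037434, chromosome 1, 191906767 to 191913247, plus strand) was at 158, 255 and 152 CPM in PBS libraries 1, 2 and 4 and at 348, 373 and 271 CPM in PTZ. The lowest PTZ library, number 4, lay just above the highest PBS library, number 2. The means were 188 ± 57.6 CPM in PBS and 331 ± 53.1 CPM in PTZ (SD, n = 3), and the log2 fold change in edgeR was 0.81 (SE 0.27, unadjusted p = 0.0117, adjusted p = 0.636). Slc30a1 was 2.20, 1.46 and 1.78 times higher within numbers 1, 2 and 4. In a fit with replicate number as block its log2 fold change in edgeR was 0.84 (SE 0.19, unadjusted p = 0.00151, adjusted p = 0.262). With the block Slc30a1 passed in DESeq2 (adjusted p = 0.0076) and not in limma-voom (0.124), both fits added after the data were seen. Without the block it did not pass in DESeq2 (0.258). Of its exon bases 8.92% are shared with 1700034H15Rik on the other strand.

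None of the 3 importers passed in any setting run, and only Slc39a8 had groups without overlap. Slc39a8 (ENSMUSG00000053897, chromosome 3, 135825279 to 135888572, plus strand), a carrier of zinc and manganese, stood at 84.5, 77.2 and 90.2 CPM in PBS libraries 1, 2 and 4 and at 106, 99.1 and 127 CPM in PTZ. The groups did not overlap, with PTZ higher, and the log2 fold change was 0.40 (SE 0.20, edgeR unadjusted p = 0.0745, adjusted p = 0.702). Groups that do not overlap in the higher direction, as in Slc30a1 and Slc39a8, were found in 2 of the 8 genes and in 7.30% of all genes tested. Slc39a10 (ENSMUSG00000025986, chromosome 1, 46807544 to 46892852, minus strand), an importer of the cell surface, stood at 159, 164 and 184 CPM in PBS and at 156, 163 and 187 CPM in PTZ. The libraries with the same number almost coincided, and the log2 fold change was -0.0047 (SE 0.20), with a sign that changed under scaling by library totals alone (0.025). Slc39a14 (ENSMUSG00000022094, chromosome 14, 70303469 to 70351425, minus strand), which carries zinc, manganese and iron, had only 8 to 47 reads per library. It stood at 0.498, 2.85 and 3.54 CPM in PBS and at 3.21, 3.66 and 0.749 CPM in PTZ, a log2 fold change of 0.14 (SE 0.94), and its direction differed between the pairs of equal number.

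**Figure D2:**
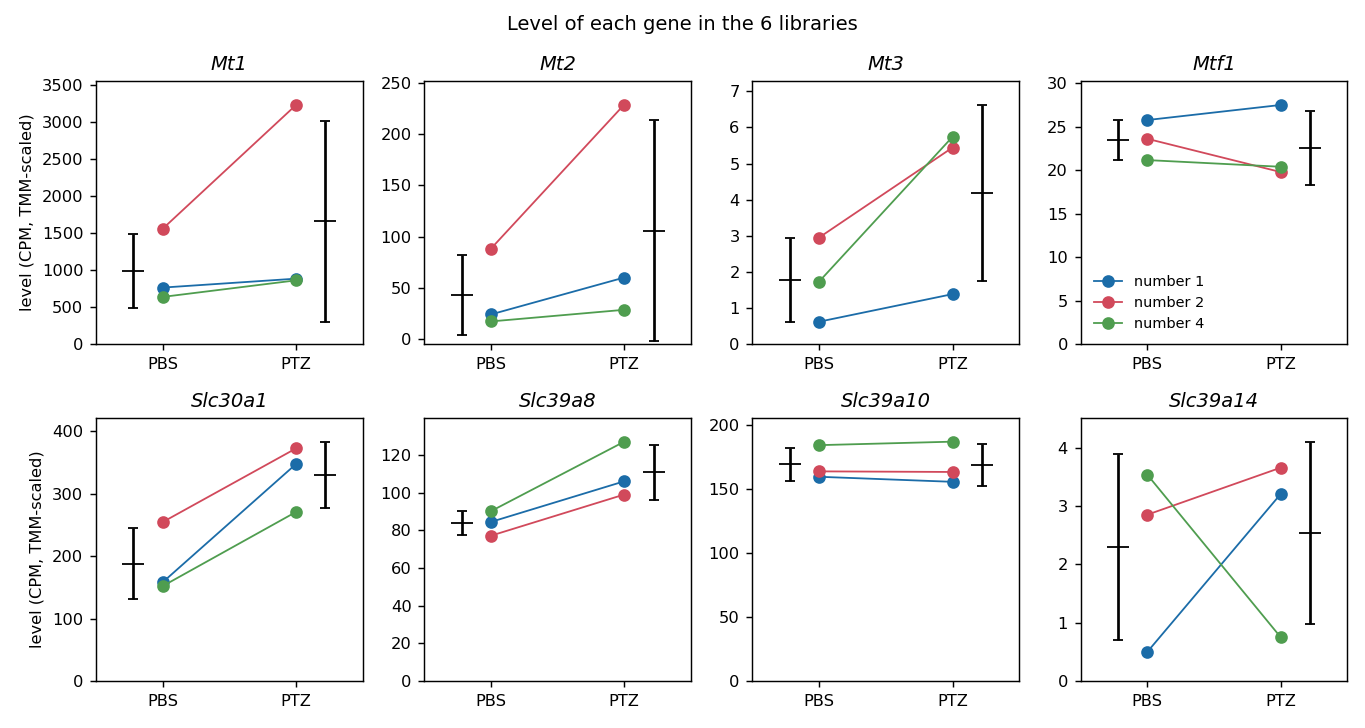
TMM-scaled CPM of each of the 8 genes in PBS and PTZ, 1 point per library, with lines joining libraries of the same number and black bars for the mean ± SD of n = 3. The libraries numbered 2 are the highest of their group for Mt1, Mt2 and Slc30a1, and the lines rise in all 3 pairs for Mt1, Mt2, Mt3, Slc30a1 and Slc39a8.

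Mt1, the metallothionein with the most reads here, varied more between the replicate numbers than between the groups. It stood at 764, 1557 and 638 CPM in PBS libraries 1, 2 and 4 and at 885, 3229 and 862 CPM in PTZ. Library 2 was the highest in each group, and PBS library 2 lay above PTZ libraries 1 and 4. The means were 987 ± 498 CPM in PBS and 1659 ± 1360 CPM in PTZ (SD, n = 3), a log2 fold change of 0.75 (SE 0.54, edgeR adjusted p = 0.781). Within numbers 1, 2 and 4 Mt1 was 1.16, 2.07 and 1.35 times higher in PTZ, and the fit with the block gave a log2 fold change of 0.56 (SE 0.22, edgeR unadjusted p = 0.0293, adjusted p = 0.408). Without PTZ library 2 the log2 fold change turned to -0.22 (SE 0.37), without PBS library 2 it was 1.22 (SE 0.61), and without both it was 0.31 (SE 0.21).

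Mt2, the partner isoform, followed the same order of libraries with a larger difference within pairs. It stood at 24.3, 88.3 and 17.5 CPM in PBS libraries 1, 2 and 4 and at 60.3, 229 and 28.8 CPM in PTZ. Again library 2 was the highest of each group and the groups overlapped, with a log2 fold change of 1.29 (SE 0.75, edgeR adjusted p = 0.735). Mt2 was 2.48, 2.59 and 1.65 times higher in PTZ within numbers 1, 2 and 4. In the fit with replicate number as block the SE was 0.21 around a log2 fold change of 1.14 (edgeR unadjusted p = 0.000394, adjusted p = 0.208). With the block Mt2 passed in DESeq2 (adjusted p = 0.00191) and not in limma-voom (0.0968), both fits added after the data were seen. Without the block it did not pass in DESeq2 (0.843). Mt2 also passed in edgeR without the low-count filter (adjusted p = 0.00886), where its SE was 0.28 in place of 0.75. Mt1 had an SE of 0.28 there too, against 0.54 with the filter, so that the SE in this setting did not follow the spread of each gene. Without PTZ library 2 the log2 fold change of Mt2 was -0.0022 (SE 0.63), without PBS library 2 it was 2.31 (SE 0.77), and without both it was 1.09 (SE 0.43). PTZ lay above PBS in all 3 pairs of equal number for 5 of the 8 genes, Mt1, Mt2, Mt3, Slc30a1 and Slc39a8, and for 18.5% of all genes. The reverse held for 0 of the 8 and for 16.6% of all genes.

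The libraries numbered 2 also differed from the others in genes outside the set. They had the lowest TMM factors, 0.915 in PBS and 0.864 in PTZ, against 0.992 to 1.14 in the others, and a lower factor raises every scaled CPM of its library. The endothelial markers of the libraries numbered 2 summed to 20734 CPM in PBS and 25389 CPM in PTZ, against 13654 to 15910 CPM in the other libraries. Ly6c1 and Slc2a1 made up most of these sums, with Ly6c1 at 7283 and 8478 CPM in the libraries numbered 2 and 3049 to 4997 CPM in the others. Not all 12 markers followed them, since Slco1a4 was lowest in the libraries numbered 2, at 672 and 644 CPM against 864 to 944 CPM. Their red cell genes summed to 9420 and 10178 CPM, against 4860 to 6274 CPM elsewhere. A list of 14 STAT3 and acute-phase genes summed to 5573 CPM in PBS library 2 and 12637 CPM in PTZ library 2, and to 1401 to 3776 CPM in the other 4. The part of these differences in the levels of Mt1 and Mt2 was not tested. Markers of other cell types were also compared between the groups, and 0 passed in edgeR after adjustment. All 9 tested markers of pericytes and smooth muscle had a positive log2 fold change (median 1.18, sums of 198 to 561 CPM in PBS and 337 to 1071 CPM in PTZ), as had all 6 of fibroblasts (median 1.41, sums of 81.5 to 143 CPM and 83.7 to 261 CPM). Both sums overlapped between the groups, and in number 2 the fibroblast sum was lower in PTZ (83.7 against 87.0 CPM). All 8 of microglia and macrophages had a negative one (median -0.43, sums of 2474 to 2982 CPM in PBS and 1617 to 2456 CPM in PTZ), and these sums did not overlap. Of all genes 52.7% had a positive log2 fold change. At an unadjusted p under 0.05 in edgeR, 3 of 9 pericyte and smooth muscle and 3 of 6 fibroblast markers were higher, against 3.83% of all genes. At that level 2 of 8 microglia and macrophage markers were lower, against 3.38%. The part of these cells in the differences of Slc30a1, Slc39a8 and the metallothioneins was not tested.

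Mt3, the metallothionein of brain that is best known from neurons and astrocytes, was scarce. Mt3 (ENSMUSG00000031760, chromosome 8, 94152607 to 94154146, plus strand) had 10 to 92 reads per library. It stood at 0.623, 2.95 and 1.73 CPM in PBS libraries 1, 2 and 4 and at 1.39, 5.44 and 5.74 CPM in PTZ, so that PTZ library 1 lay below PBS libraries 2 and 4. The log2 fold change was 1.25 (SE 0.86, edgeR adjusted p = 0.775). The 10 astrocyte markers summed to 91.7 to 181 CPM in PBS and 111 to 238 CPM in PTZ, with PTZ library 4 the highest, and 6 of the 8 tested had a positive log2 fold change (median 0.60). Of the 10, Aqp4, the water channel of astrocyte endfeet, stood at no more than 1.08 CPM in any library, Aldh1l1 at 0 to 2.67 CPM and Gfap at 1.38 to 4.65 CPM. The glutamate transporter gene Slc1a2 reached 102 CPM, Fgfr3 83.6 CPM and Slc1a3 43.4 CPM. In PTZ library 4, where Mt3 was highest, Aldoc stood at 29.6 CPM and Gjb6 at 23.8 CPM, against at most 5.02 and 7.04 CPM in the other libraries. Slc4a4 and Slc1a2 were also highest in that library, at 9.67 and 102 CPM. Slc1a2 stood almost as high, at 96.6 CPM, in PBS library 1, where Mt3 was lowest. The other markers were highest elsewhere: Fgfr3, Gfap and Aldh1l1 in PTZ library 2, Slc1a3 in PTZ library 1, Gja1 and Aqp4 in PBS library 2. The 8 neuron markers summed to 270 to 444 CPM in PBS and 252 to 460 CPM in PTZ, mostly from Stmn2. Of the 5 tested, 3 had a positive and 2 a negative log2 fold change (median 0.18). Snap25 and Syn1 were highest in PTZ library 4, at 3.74 and 4.12 CPM, while Stmn2 and Rbfox3 were highest in PTZ library 2, at 420 and 28.4 CPM. The part of astrocyte or neuron RNA in the reads of Mt3 was not tested.

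Mtf1, the zinc sensor, was expressed at a low and even level. Mtf1 (ENSMUSG00000028890, chromosome 4, 124802104 to 124849800, plus strand) stood at 25.8, 23.6 and 21.2 CPM in PBS libraries 1, 2 and 4 and at 27.5, 19.8 and 20.4 CPM in PTZ. The groups overlapped, with a log2 fold change of -0.06 (SE 0.28, edgeR adjusted p = 0.975).

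**Figure D3:**
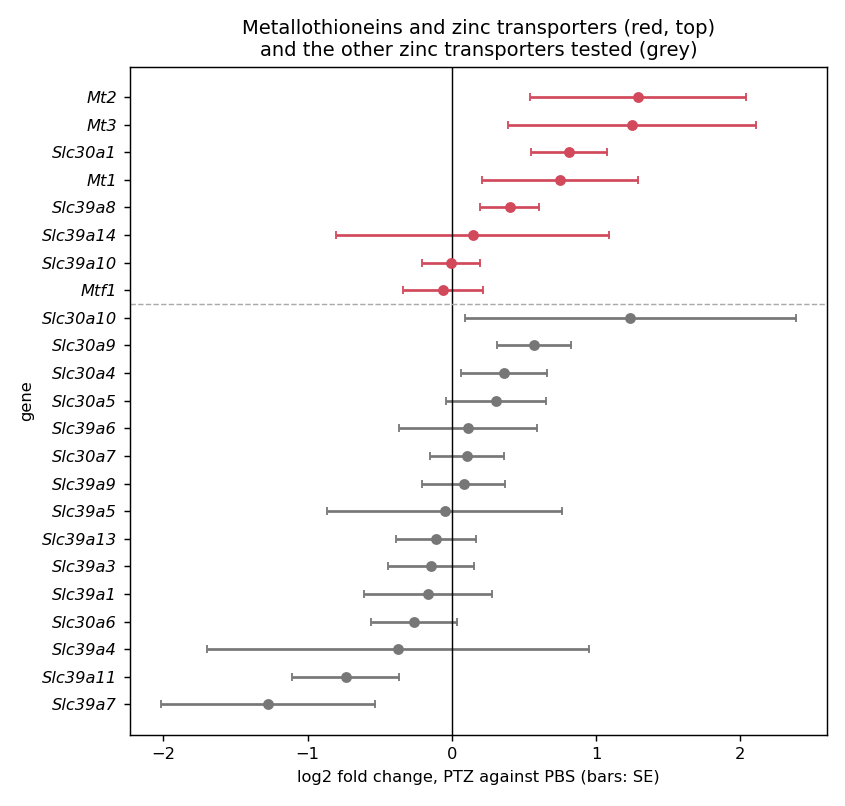
Log2 fold change of PTZ against PBS with its SE for the 8 genes (red, above the dashed line) and for the other 15 zinc transporters tested (grey). Slc30a1 at 0.81 has an SE of 0.27, while Mt2 and Mt3 have larger values with an SE of 0.75 and 0.86.

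Over all 6 libraries Mt1 and Mt2 followed each other closely, with a Pearson correlation of their log2(CPM + 1) of 0.96. Slc30a1 correlated with Mt2 at 0.81 and with Mt1 at 0.68, and Mtf1 with Mt1 at -0.39. Across 9711 genes with a mean of at least 5 CPM, the patterns most like the mean of Mt1 and Mt2 included those of Cds2 (r = 0.990), Eif3f (0.985), Tchp (0.982) and Hdac5 (0.980). In these 6 points, which share the contrast between library 2 and the others, 160 of those genes had an r over 0.9. For Slc39a14 the most alike were Prkd1 (0.975), Lcmt2 (0.970) and Morn4 (0.964). These are descriptions of 6 libraries and carry no test.

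Zinc transporters outside the 8 genes showed no common direction. Of 21 listed, 15 were tested, 7 had a positive and 8 a negative log2 fold change, the median was -0.05 against 0.03 over all genes, and 0 passed in edgeR, also at an unadjusted p under 0.05. Slc30a9 was the gene with the smallest p. It stood at 34.6, 21.3 and 31.7 CPM in PBS libraries 1, 2 and 4 and at 42.5, 39.8 and 47.7 CPM in PTZ, with no overlap and a log2 fold change of 0.57 (SE 0.26, edgeR adjusted p = 0.691), which was 0.35 without PBS library 2. Slc39a11 had a log2 fold change of -0.73 (SE 0.37) with overlapping libraries, which was -0.46 without PBS library 1. Slc39a7, a zinc channel of the endoplasmic reticulum and Golgi, stood at 4.61, 4.53 and 5.88 CPM in PBS and 1.61, 3.76 and 0.874 CPM in PTZ, with no overlap and a log2 fold change of -1.27 (SE 0.74), which was -2.05 without PTZ library 2. It had only 14 to 78 reads per library. Of the 15 tested, 1 had groups without overlap in the higher and 1 in the lower direction, where 7.30% and 7.04% of all genes had. The 6 untested genes, among them Slc30a3, the transporter that loads zinc into synaptic vesicles, and Slc39a12, known from astrocytes, had 1 to 45 reads in all libraries together.

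Copper shares metallothionein with zinc, and 3 of 10 tested copper genes had a positive and 7 a negative log2 fold change (median -0.24), with 0 passing in edgeR. Atp7a, a copper pump that exports copper and loads it onto enzymes, stood at 56.9, 79.0 and 58.8 CPM in PBS libraries 1, 2 and 4 and at 132, 85.3 and 99.9 CPM in PTZ. Every PTZ value exceeded every PBS value, with a log2 fold change of 0.70 (SE 0.24, edgeR adjusted p = 0.648). Slc31a2, a copper transporter of endosomes and lysosomes, was lower in every PTZ library, with a log2 fold change of -0.58 (SE 0.24) that was -0.35 without PBS library 4, and so was Commd1 (-0.41, SE 0.22). In this list 1 gene had groups without overlap in the higher and 4 in the lower direction, where 7.30% and 7.04% of all genes had. At an unadjusted p under 0.05 in edgeR 1 of the 10 was higher and 1 lower, against 3.83% and 3.38% of all genes. Of all genes 52.7% had a positive log2 fold change.

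Among genes known to respond to glucocorticoids, which also induce metallothioneins, 12 of 14 had a positive log2 fold change (median 0.67), against 52.7% of all genes. Of the 14, 8 were higher in PTZ without overlap, against 7.30% of all genes, and 7 were higher at an unadjusted p under 0.05, against 3.83%, while 0 passed in edgeR after adjustment. The smallest p values belonged to Errfi1 (log2 fold change 2.93, SE 0.40), Ddit4 (1.83, SE 0.36) and Dusp1 (1.46, SE 0.31). Errfi1 ranked 1 by p among all genes tested. All 3 passed in DESeq2, with an adjusted p of 9.95e-10, 0.00131 and 0.00687, and Errfi1 also passed in limma-voom (adjusted p = 0.0266). All 3 passed too in edgeR without the low-count filter, the setting in which the SE did not follow the spread of each gene. Of the STAT3 and acute-phase genes 11 of 14 had a positive value (median 0.43) and 0 passed in the reported edgeR fit. In that list Il6st, the shared receptor chain of the interleukin-6 family, stood at 303 CPM in PBS and 415 CPM in PTZ on average (0.45, SE 0.23). Serpina3n, a secreted protease inhibitor, had a log2 fold change of 1.95 (SE 1.05) that was 0.04 without PTZ library 2. In edgeR without the low-count filter Serpina3n passed (adjusted p = 1.65e-07), with an SE of 0.28 there. Bcl3, a regulator of NF-kB, averaged 23.1 CPM in PBS and 11.6 CPM in PTZ with overlapping libraries. Genes of glutathione and oxidative stress gave 5 positive and 9 negative values of 14 (median -0.23), again with 0 passing. There catalase (Cat) was lower in every PTZ library (-0.41, SE 0.19). Of the 14, 1 had groups without overlap in the lower and 1 in the higher direction, where 7.04% and 7.30% of all genes had. Gpx1 had -0.65 (SE 0.36, and -0.26 without PBS library 2) and the cystine importer gene Slc7a11 had 0.86 (SE 0.40, and 0.31 without PTZ library 1). These lists were written with earlier results of these data known and are given as counts, which are no test of a pathway. The part of glucocorticoids, STAT3 or oxidative stress in the levels of Mt1 and Mt2 was not tested.

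**Figure D4:**
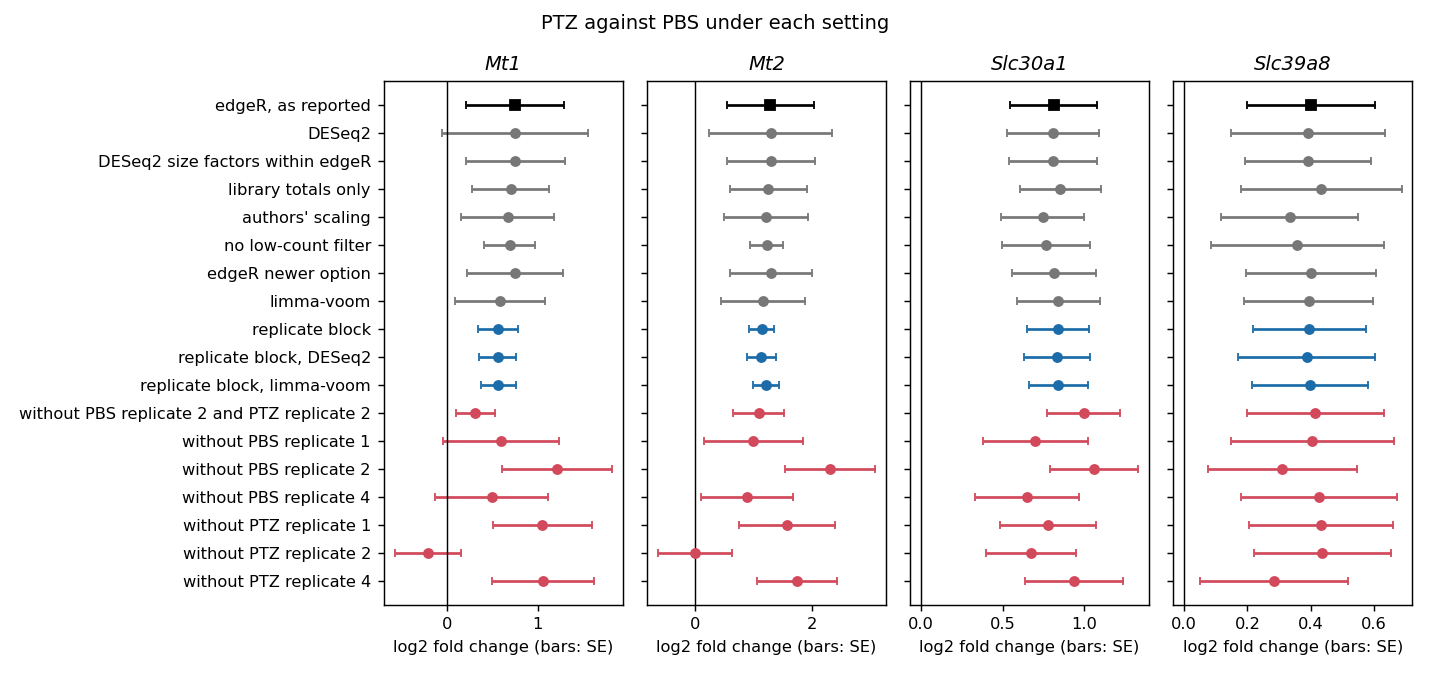
Log2 fold change with its SE for Mt1, Mt2, Slc30a1 and Slc39a8 under each setting, with the value as reported at the top (square), replicate blocks in blue and single or paired left-out libraries in red. Mt1 and Mt2 fall to -0.22 and -0.0022 without PTZ library 2, while Slc30a1 stays between 0.65 and 1.06 and Slc39a8 between 0.28 and 0.44.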

How the data were processed

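The authors deposited 1 matrix of raw read counts, 53465 Ensembl genes by 6 libraries, and it was used unchanged. The authors also deposited a scaled signal for each library separately, the count divided by 1 factor per library, and it served as an alternative scaling. CASAVA, TopHat2 2.1.1, HTSeq, edgeR and GRCm38 are named in the submitters' processing notes, with no role or order. Which annotation release and strand setting were used is not stated there. Rows that name no gene held 16.1% to 22.9% of reads per library and were left out. The share was highest in PTZ library 1, where 9.34% of reads fell on no annotated feature, against 2.99% to 5.19% in the other libraries. Without PTZ library 1 the log2 fold change of Slc30a1 was 0.78 (SE 0.29).

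Tests ran in R 4.3.3. The filter was filterByExpr (minimum count 10 and total 15), and 13768 of the 34777 genes with any read passed. After TMM scaling the groups were compared in edgeR 4.0.16 by its quasi-likelihood test (2-sided, Benjamini-Hochberg over all genes tested, threshold 0.05). Alternatives used DESeq2 1.42.0 and limma 3.58.1. Nothing ties libraries to separate animals, so p-values reflect only the spread among libraries, possibly technical. Deviations from group means correlated at 0.206, 0.266 and 0.263 between libraries of the same number from the titles. Between libraries of unlike number the correlations were -0.166 to -0.100. Each correlation of equal numbers being over 0.1, folds are also given within numbers, and a block on the number was 1 of the alternatives. The edgeR fit that gave the reported values had no block unless one is named. Exon lengths and coordinates came from GENCODE M21 (GRCm38) and promoters from RefSeq (GRCm38.p6). The 8 genes and all lists were chosen with earlier results of these data known. Text names all 8 genes, up to 3 genes per pathway list with the smallest p, and the genes of most similar pattern (Pearson r of log2 CPM, 5 for Mt1 and Mt2, of which 1 is not reported here, and 3 for Slc39a14). Single further zinc transporters and markers were chosen after their values were seen.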

Additional observations from a re-analysis of the deposited data

How the results depend on the processing

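The counts of genes called, 0 higher and 0 lower, stayed at 0 under the other scalings, edgeR's newer option and the replicate block. They became 53 and 23 in DESeq2, 77 and 44 without the low-count filter, 1 higher in limma-voom, and, in fits added after seeing the data, 130 and 77 in DESeq2 and 11 and 2 in limma-voom with the replicate block and 3 higher without both libraries numbered 2. Leaving out single libraries gave 0 to 8 genes higher (8 without PBS replicate 2) and 0 lower. The block in edgeR changed no call. Without the low-count filter Mt1, Mt2 and Serpina3n each had an SE of 0.28, against 0.54, 0.75 and 1.05 with it.

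Slc30a1, Slc39a8 and Mt3 kept their direction in all settings run. Without 1 library the log2 fold change ranged from -0.22 to 1.22 for Mt1, -0.0022 to 2.31 for Mt2, -0.23 to 0.01 for Mtf1, -0.090 to 0.052 for Slc39a10 and -0.34 to 0.58 for Slc39a14. It ranged from -0.08 to 0.22 for Slc30a7, -0.27 to 0.06 for Slc39a13, -0.66 to 0.026 for Slc39a1, -0.12 to 0.32 for Slc39a9, -1.19 to 0.53 for Slc39a4, -0.17 to 0.61 for Slc39a6 and -0.25 to 0.13 for Slc39a5. Without both libraries numbered 2, Mtf1 was at 0.025, Slc39a14 at -0.012, Slc30a7 at -0.18, Slc39a13 at 0.23, Slc39a4 at 0.46, Slc39a6 at -0.12 and Slc39a5 at 0.28. With library totals only, Slc39a10 was at 0.025 and Slc39a5 at 0.0076, and Slc39a5 was at 0.028 with edgeR's newer option, at 0.030 in limma-voom and at 0.0094 in limma-voom with the block. The causes were not tested. With the length of the longest transcript in place of all exons, levels per kb of Mt3, Slc39a8 and Slc39a14 were 5.56, 23.1 and 0.473. Low counts limit Mt3 and Slc39a14.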
